A study of Mus musculus with 4 samples.

Results

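The cytosolic ribosomal protein genes encode the protein part of the ribosome that works outside mitochondria. They were taken as every symbol in the deposited table made of Rpl or Rps and a number, with at most 1 closing letter a, x or l, together with Rplp0, Rplp1, Rplp2 and Rpsa. This gave 80 of 23361 genes, 31 of the small subunit and 49 of the large subunit. RNA was sequenced from cultured mammary tumour cells of the Chaos3 mouse (strain C3HeB/FeJ) in 4 libraries, 2 per group. The Low group is the parental 23116 MT tumour line, labelled low in Arid1a, a subunit of a SWI/SNF chromatin remodelling complex. The High group is a pair of clones, AB-C1 and AB-C2, transduced with a lentiviral vector for over-expression of Arid1a and labelled high in it, with 1 library per clone. The clones derive from the same tumour line, and an untransduced or empty-vector clone is not among the libraries analysed here. The effect of the vector, that of Arid1a and the difference between single clones cannot be told apart. Which High library is which clone is not given, so they are called High library 1 and High library 2.

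Arid1a itself was lower in both libraries labelled High, at 49.8 and 58.3 CPM (fragment counts relative to library size, with TMM factors), than in the Low libraries, at 82.2 and 94.2 CPM. Its change was -0.71 ± 0.23 on the log2 scale (SE, edgeR's quasi-likelihood test, adjusted p = 0.165), and the sources used here do not say whether fragments from the vector could count towards Arid1a. Against Low, the test called Arid1a lower in High library 1 (-0.82 ± 0.30, adjusted p = 0.0362) but not in High library 2 (-0.60 ± 0.30, adjusted p = 0.167). These values go against the labels, and whether the labels are exchanged was not tested. High and Low name the libraries as labelled throughout, and every direction below holds for the labels as given. Totals ran from 13889857 to 28110813 fragments per library. Of the cell type markers examined, the epithelial list (Epcam, Cdh1, Krt8, Krt18, Krt19) summed to 807.1 to 2153 CPM per library and the basal list (Krt5, Krt14, Trp63, Acta2, Myh11) to 1301 to 2680 CPM. The fibroblast list of 7 genes summed to 6095 and 5490 CPM in Low and to 800.6 and 372.7 CPM in High. Of 6 leukocyte markers, 2 were at 0 in every library, Cd3e among them, and the list summed to 9.62 and 9.84 CPM in Low and to 22.1 and 28.1 CPM in High. Hba-a1 of red cells and Plin1 of adipocytes were at 0 in every library.

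Each ribosome holds 1 copy of most of these proteins, with the stalk proteins Rplp1 and Rplp2 as exceptions, and cells make them in step with ribosomal RNA. Many of their mRNAs start with a C followed by a run of pyrimidines, the terminal oligopyrimidine tract, through which mTOR signalling controls their translation. Because the proteins are needed together, their mRNAs are among the most abundant of growing cells, tumour cells included. Several of the genes are mutated in Diamond-Blackfan anaemia, an inherited failure of red cell production.

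Start sites are shown for members whose values the results turn on and for Rps6, to let the tract be seen. They come from RefSeq (build GRCm38.p6), which held a start window for 60 of the 80 genes. Each is the 15 bases before and the 15 bases from the annotated start, 5′ to 3′ on the gene's strand, and capitals mark the unbroken run of C and T from the start.
Rpl35, chr2:39005117-39005146, minus strand: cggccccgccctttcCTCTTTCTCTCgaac
Rps6, chr4:86857353-86857382, minus strand: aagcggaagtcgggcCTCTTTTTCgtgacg
Rpl15, chr14:18270972-18271001, minus strand: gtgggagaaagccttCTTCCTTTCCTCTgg
Rpl7a, chr2:26910792-26910821, plus strand: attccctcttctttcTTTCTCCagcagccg
Rps7, chr12:28635939-28635968, minus strand: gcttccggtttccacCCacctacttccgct
Rpl26, chr11:68901551-68901580, plus strand: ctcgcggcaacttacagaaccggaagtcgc

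A C at the annotated start followed by at least 4 more pyrimidines was found for 13 of the 60 members (21.7%) and for 457 of 16344 genes in the same table (2.8%). Within 50 bases on either side of the start, bases before it included, a C-led pyrimidine run of at least 8 bases was searched. It was found for 51 of 60 members (85%) and for 32.2% of all genes. The motif CTTTCC was searched in the same window, on the sense strand only, and can lie inside such a run. It was present for 19 of 60 members (31.7%) and for 5.19% of all genes. The last 2 features were chosen after the sequences had been viewed. Annotated starts can miss the true start by some bases, and a match is a description of letters only. The 13 members with a tract at the annotated start had a median log2 difference of -0.46 between High library 1 and High library 2, and the other 44 tested members with a window had -0.45. Between High and Low these medians were -0.22 and -0.06, and the differences between the sets were not tested.

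All 80 genes matched the GENCODE annotation of mm10 by symbol. They lay on 19 chromosomes, with 14 on chromosome 7, so the set is no local cluster. In the text, positions are of the whole annotated gene, with exons and introns, all of them protein-coding.

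Of the 80 genes, 77 passed the filter on low counts and were tested among 12987 genes. Rpl10l and Rpl39l, paralogues of Rpl10 and Rpl39 that are mostly expressed in testis, had 0 fragments in every library. Rpl3l, the muscle paralogue of Rpl3, had 1 fragment, in High library 2. On the FPKM scale, which is per length, the 5 highest means over the 4 libraries were those of Rps4x (2512), Rplp1 (2508), Rps14 (2417), Rps2 (2405) and Rpl23a (2368). Rps4x is the X-linked copy of a small-subunit protein, and Rplp1 is an acidic protein of the stalk that recruits elongation factors. The libraries of Rplp1 ran at 3256 and 1780 FPKM (Low) and 1858 and 3137 FPKM (High), so its place in that order differed from library to library. The lowest expressed members were Rps27 (3.70 FPKM), Rpl26 (8.66), Rpl30 (41.0), Rps15a (68.0) and Rpl22 (150.1). Their low FPKM need not measure how much mRNA the cells held. Relative to the median tested gene, the effective length that FPKM divides by was 1.89 for Rps15a and 0.705 for Rpl22. The median of the members was 0.185. In CPM, which is not per length, Rps15a stood at 285.5 to 383.4 and Rpl22 at 262.8 to 290.3. Many ribosomal protein genes have processed pseudogenes of near-identical sequence, and the sources used here do not say how fragments that match several places were counted. The values of all members are uncertain for that reason. The 3 lowest stood below 50 CPM on average (Rpl30 14.3, Rpl26 2.98 and Rps27 1.32 CPM), and the other 74 tested members stood above it.

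Of all fragments, the members took 5.20% and 4.08% in Low and 3.97% and 5.38% in High. Low library 1 and High library 2 were high, and Low library 2 and High library 1 were low, so the groups overlapped. The small subunit took 2.03% and 1.57% (Low) and 1.54% and 2.08% (High). The large subunit took 3.17% and 2.51% (Low) and 2.43% and 3.30% (High), in the same order of libraries. Leaving the members with a paralogue in the set out of the sum gave 4.93%, 3.85%, 3.74% and 5.09% in that order.

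**Figure D1:**
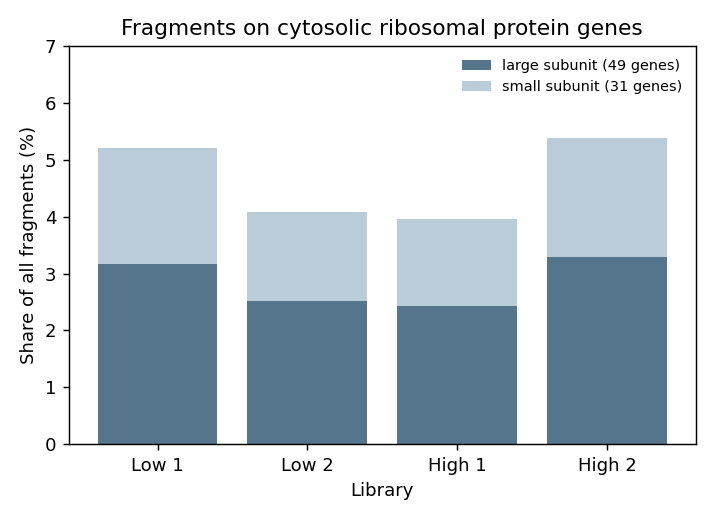
Share of all fragments that fell on the 80 ribosomal protein genes, in percent, for each of the 4 libraries, with the bars stacked by small-subunit and large-subunit genes and starting at 0. The shares of Low library 1 (5.20%) and High library 2 (5.38%) are close to each other and above those of Low library 2 (4.08%) and High library 1 (3.97%).

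The same order held gene by gene. With each gene's log2 CPM centred on its mean over the 4 libraries, the median over the 77 tested members was 0.24 in Low library 1, -0.15 in Low library 2, -0.27 in High library 1 and 0.20 in High library 2. In 57 of the 77 members (74%) the 2 highest libraries were Low library 1 and High library 2, which was so for 16.7% of all tested genes. The 2 Low libraries were the highest pair in 11 members (14.3%, against 25.1% of all genes). The 2 High libraries were the highest pair in 3 members (3.9%, against 25.9%). Within the Low pair alone, library 2 was below library 1 in 70 of 77 members (90.9%), with a median log2 difference of -0.41, while over all tested genes it was below in 50.3%, with a median of 0.00. The members share their libraries, so these counts describe 4 libraries and are not 77 independent observations. Depth was 13889857 fragments in Low library 1, 28110813 in Low library 2, 16523077 in High library 1 and 24307250 in High library 2. The part of depth in the order of libraries was not tested. The epithelial marker sum had the same order as the members, at 1429 and 1044 CPM (Low) and 807.1 and 2153 CPM (High), as had the basal sum, at 2296, 1769, 1301 and 2680 CPM. Their part in the result was not tested, and in bulk RNA fewer cells of a type and less RNA per cell cannot be told apart.

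**Figure D2:**
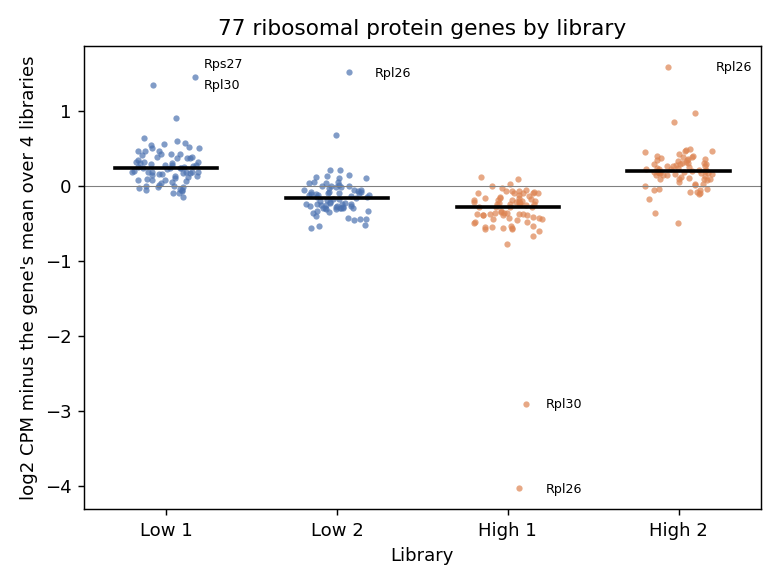
Log2 CPM of each of the 77 tested ribosomal protein genes minus its own mean over the 4 libraries, 1 point per gene and library, with the median over genes as a line and outlying genes named. The medians are 0.24, -0.15, -0.27 and 0.20 from left to right, and 2 points lie far below the rest, Rpl30 and Rpl26 in High library 1. The value of Rpl26 there, -4.02, comes from 0 fragments and depends on the prior count added before the log.

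The comparison that the labels set up, High against Low, asks whether the genes differ between the parental line and the clones. None of the 77 members passed the test (adjusted p under 0.05), where 2.47% of all tested genes did. At an unadjusted p under 0.05 there were 2 members, Rpl34 and Rpl7a, against 18.1% of all genes. DESeq2 called 1 member, Rpl34 (adjusted p = 0.0222), against 8.75% of genes, and limma-voom called 0, against 1.67%. The median log2 change of the members was -0.06 beside 0.03 for all tested genes, and 44 of 77 (57.1%) were below 0 beside 47.8% of all genes. The small-subunit median was -0.03 and the large-subunit median was -0.07. The members' median turned to 0.01 when libraries were scaled by total counts only. That scaling also moved the median of all tested genes, from 0.03 to 0.10, so the members stayed below it. The members' median was 0.14 without Low library 1 and 0.21 without High library 1, against -0.25 and -0.31 without the other library of the pair. Its sign thus turned with the libraries that entered.

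Both High libraries were below both Low libraries for 11 members, which is 14.3% of those tested where 25.1% of all tested genes were so. Both High libraries were above both Low libraries for 3 members, Rpl23, Rps13 and Rps15a, where 25.9% of all genes were. Rpl34, a large-subunit protein (chr3:130726831-130730398, minus strand), had 238.5 and 186.8 CPM in Low and 120.3 and 125.1 CPM in High. The High pair lay close together, below both Low values, and the change was -0.79 ± 0.23 on the log2 scale (SE, 2 libraries per group, adjusted p = 0.132). Rpl7a (chr2:26910764-26913318, plus strand), a large-subunit protein with several snoRNA genes in its introns, had 1203 and 903.9 CPM in Low and 581.3 and 779.1 CPM in High. Its log2 change was -0.63 ± 0.26 (adjusted p = 0.263), again without overlap of the groups. Rpl4 had 1741 and 1738 CPM in Low and 1336 and 1528 CPM in High, a log2 change of -0.28 ± 0.22 (adjusted p = 0.547). It was picked after its values were seen because the Low pair differed so little.

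The other members at the ends of the comparison did not pass the test either. Rps27, a small-subunit zinc-binding protein, had the lowest fitted change, -1.39 ± 0.87 (adjusted p = 0.452), from 42 and 21 fragments in Low and 12 and 18 in High. Its paralogue Rps27l, a known p53 target, had 117.7 and 113.6 CPM in Low and 89.0 and 98.2 CPM in High, and a change of -0.30 ± 0.21 (adjusted p = 0.499). At the other end stood Rps29 (0.39 ± 0.70), Rps20 (0.35 ± 0.26), Rpl36a (0.31 ± 0.25), Rpl39 (0.29 ± 0.24) and Rps15a (0.28 ± 0.22), with adjusted p between 0.528 and 0.825. Of these, only Rps15a had both High libraries (360.3 and 383.4 CPM) above both Low libraries (327.2 and 285.5 CPM). For Rps20, Rpl36a and Rpl39, High library 1 lay between the Low libraries.

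Taken apart, the median log2 changes of the High libraries against the Low pair were -0.31 and 0.21, on opposite sides of 0. By the centred medians, High library 2 (0.20) lay between the Low libraries (0.24 and -0.15), and High library 1 (-0.27) lay below both. With the trend of each library with transcript length taken out, as described below, the median changes were -0.20 and -0.02. Those of all tested genes were -0.02 and -0.03 in that fit. Both comparisons below use the same 2 Low libraries, and each lone High library is assumed to vary like them. High library 1 was lower than Low in 9 members and higher in 0, where the test called 8.19% of all tested genes lower and 10.7% higher. The median log2 change was -0.31 beside -0.01 for all genes, and 68 of 77 members (88.3%) were below 0 beside 50.7%. High library 2 was higher than Low in 1 member and lower in 0, where 9.16% of all genes were called higher and 8.15% lower. Its median was 0.21 beside 0.00 for all genes, and 24 of 77 members (31.2%) were below 0 beside 50.2%. Without Low library 1 the medians were -0.12 and 0.37. Without Low library 2 they were -0.52 and -0.01, so that High library 2 then differed little from the remaining Low library.

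The 9 members lower in High library 1 were Rps2 of the small subunit and Rpl7a, Rpl8, Rpl26, Rpl30, Rpl34, Rpl35, Rpl37 and Rpl41 of the large subunit. That is 1 of 31 and 8 of 46 tested genes, and the difference between the subunits was not tested. Rpl30, a large-subunit protein (chr15:34440505-34443640, minus strand), had 326 and 413 fragments in Low, 20 in High library 1 and 418 in High library 2. In CPM these were 23.9, 15.1, 1.17 and 17.0, and High library 1 was 16.5-fold below Low (log2 change -4.05 ± 0.49, adjusted p = 1.17e-14). Rpl26 (chr11:68901583-68906989, plus strand), a large-subunit protein also known to bind p53 mRNA, had 39 and 121 fragments in Low, 0 in High library 1 and 114 in High library 2. Taking 3 fragments as the floor of High library 1, its level there was at least 20.8-fold lower than the Low mean (adjusted p = 1.66e-08). Both genes are among the rarest members, and the low counts of the other 3 libraries limit how well these folds are known.

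The remaining 7 were abundant genes with changes of less than 1 on the log2 scale. Rpl8 (chr15:76904078-76906314, plus strand), which lies near the catalytic centre of the ribosome, had 1123 and 730.7 CPM in Low, 502.9 in High library 1 and 721.6 in High library 2. Its change in High library 1 was -0.88 ± 0.29 (adjusted p = 0.0173). Rpl7a changed by -0.86 ± 0.29 (adjusted p = 0.0204). Rpl35 (chr2:39001580-39005624, minus strand), which sits at the exit of the protein tunnel, had 502.9 and 324.4 CPM in Low, 231.1 in High library 1 and 337.2 in High library 2. It changed by -0.84 ± 0.30 (adjusted p = 0.033). In each of these 3 genes High library 1 was the lowest of the 4 libraries. Rpl37, Rpl34, Rpl41 and Rps2 changed by -0.84, -0.82, -0.78 and -0.72, with adjusted p from 0.0393 to 0.0459. These calls sat close to the threshold. Among 6 other ways to scale, filter or test, Rpl41 was called in 1, Rps2 in 2 and Rpl34 in 3, while Rpl26, Rpl30, Rpl7a and Rpl8 were called in all 6. Scaling by total counts only left 4 calls.

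The 1 member higher in High library 2 was Rps29 (chr12:69157722-69159186, minus strand), a small zinc-binding protein of the small subunit and a Diamond-Blackfan gene. It had 197.9 and 110.2 CPM in Low, 92.9 in High library 1 and 310.5 in High library 2. High library 2 was above both Low libraries and High library 1 below both. The rise was 1.01 ± 0.29 on the log2 scale (2.02-fold, adjusted p = 0.0046), and it was called in 6 of 6 alternatives.

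Compared directly, High library 1 was below High library 2 in 76 of 77 members (98.7%), beside 51.1% of all tested genes, with a median of -0.47 beside -0.02. The exception was Rps24, with 712.9 CPM in High library 1 and 579.3 CPM in High library 2 (0.30 ± 0.33, adjusted p = 0.69). The test called 5 members lower and 0 higher, where 4.46% and 6.47% of all tested genes were called. They were Rps7 and Rps29 of the small subunit and Rpl26, Rpl30 and Rpl36 of the large subunit. Rps29 differed 3.34-fold (-1.74 ± 0.36, adjusted p = 3.34e-05). Rps7 (chr12:28630854-28635953, minus strand), known to bind Mdm2, had 467.8 CPM in High library 1 and 939.2 CPM in High library 2, with the Low libraries between them at 778.6 and 645.7. The difference was 2.01-fold (-1.01 ± 0.33, adjusted p = 0.0237). Rpl36 (chr17:56613416-56614243, plus strand) had 76.6 and 167.1 CPM in the High libraries and 163.4 and 102.8 CPM in Low. Its difference was -1.13 ± 0.35 (adjusted p = 0.0157). Rpl30 differed by -3.86 ± 0.51 (adjusted p = 7.52e-12), and Rpl26 was at least 26.5-fold lower in High library 1 (adjusted p = 1.36e-08). Next to Rps24, the members that differed least were Rpl15 (-0.05 ± 0.33), Rpl34 (-0.06 ± 0.35), Rps27 (-0.06 ± 0.98) and Rps15a (-0.09 ± 0.34).

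**Figure D3:**
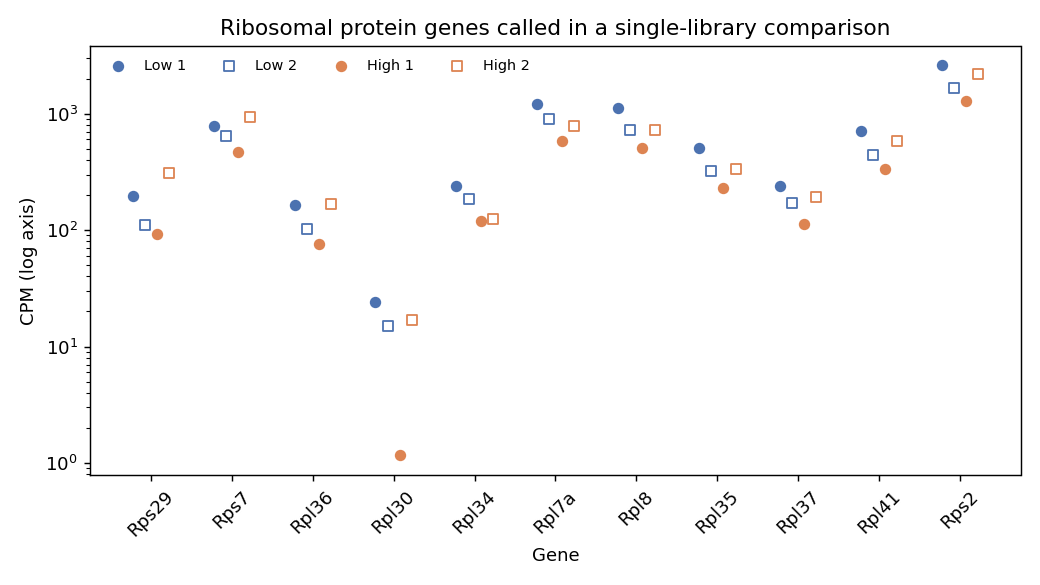
CPM on a log axis in the 4 libraries for the ribosomal protein genes called in a comparison of a single High library, with 1 point per gene and library. Rpl26, at 0 in High library 1, is left out. High library 1 is the lowest point for each gene shown, and for Rps29 High library 2, at 310.5 CPM, is above both Low libraries.

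Members with known roles beside translation, and those of the stalk, showed the order of libraries to different degrees. Rpl5 and Rpl11, which join the small ribosomal RNA of the large subunit and can hold Mdm2 away from p53, did not pass any of the 4 tests. Rpl11 had 576.0 and 420.9 CPM in Low and 326.6 and 481.7 CPM in High, the common order of libraries. Rpl5 had 1257 and 1377 CPM in Low and 1242 and 1722 CPM in High, with High library 2 high and the other 3 close. The stalk protein Rplp0 had 2845 and 2077 CPM in Low and 2153 and 3644 CPM in High. Its partner Rplp2 followed with 308.8, 189.4, 223.9 and 344.2 CPM in the same order. The Rplp0 difference between the High libraries was -0.76 ± 0.30 (adjusted p = 0.0844), that of Rplp1 -0.75 ± 0.33 (adjusted p = 0.134). Rps6, the target of S6 kinase downstream of mTOR, varied less, with 851.9 and 748.9 CPM in Low and 740.8 and 908.1 CPM in High. Rps19, the gene most often mutated in Diamond-Blackfan anaemia, had 338.9 and 239.3 CPM in Low and 237.6 and 353.4 CPM in High. Rpsa, also known as a laminin receptor, had 2304 and 1812 CPM in Low and 1342 and 1931 CPM in High, so High library 1 was the lowest of the 4. Rps27a, made as a fusion with ubiquitin, had a narrow range, at 760.5 and 783.4 CPM in Low and 689.4 and 818.4 CPM in High. Rpl22 had 290.3 and 278.5 CPM in Low and 262.8 and 283.4 CPM in High, a narrow range as well. Rpl10 and Rpl3, whose paralogues were at or near 0, changed by 0.03 ± 0.24 and -0.08 ± 0.24 between High and Low.

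Ribosomal proteins outside the naming rule are given as context. Fau, which makes a small-subunit protein as a ubiquitin-like fusion, had 393.4 and 245.3 CPM in Low and 270.1 and 410.3 CPM in High. Gnb2l1, the scaffold protein Rack1 of the small subunit, had 1549, 1291, 1111 and 1525 CPM in the same order. Both had their highest values in Low library 1 and High library 2. Rpl22l1, the paralogue of Rpl22, had another order, at 45.6 and 56.2 CPM in Low and 62.0 and 52.9 CPM in High. Rpl7l1, a paralogue of Rpl7, was lower in both High libraries (130.7 and 123.7 CPM) than in both Low libraries (184.9 and 202.8 CPM), with a log2 change of -0.61 ± 0.21 (adjusted p = 0.197).

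Ribosomal protein mRNAs are short, and the libraries differed by transcript length over other genes as well. The effective length of a transcript, relative to the median tested gene, was recovered from the ratio of fragments to FPKM. The median of the members was 0.185 of the median tested gene. Among genes that are no members, deciles of length were taken over those with a mean log2 CPM over 5. There the median log2 difference between Low library 2 and Low library 1 rose from -0.22 in the shortest decile to 0.39 in the longest. Between High library 1 and High library 2 it rose from -0.29 to 0.17. The members followed that direction. In the shortest, middle and longest of 3 length classes of members, the medians were -0.64, -0.42 and -0.34 within the Low pair, and -0.59, -0.47 and -0.38 within the High pair. Of the other genes over that CPM level, 652 lay within the 10th to 90th percentile of the members' lengths. They had medians of -0.22 and -0.28 within the Low and High pairs, against -0.41 and -0.47 for all 77 members. Their median relative length was 0.328, longer than the 0.185 of the members, so the sets were not compared at equal length. Across the 74 members above 50 CPM, the difference within the Low pair went with log2 length at r = 0.467 (rho = 0.444), and that within the High pair at r = 0.383 (rho = 0.344). These points are genes of the same libraries, and are given as a description.

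**Figure D4:**
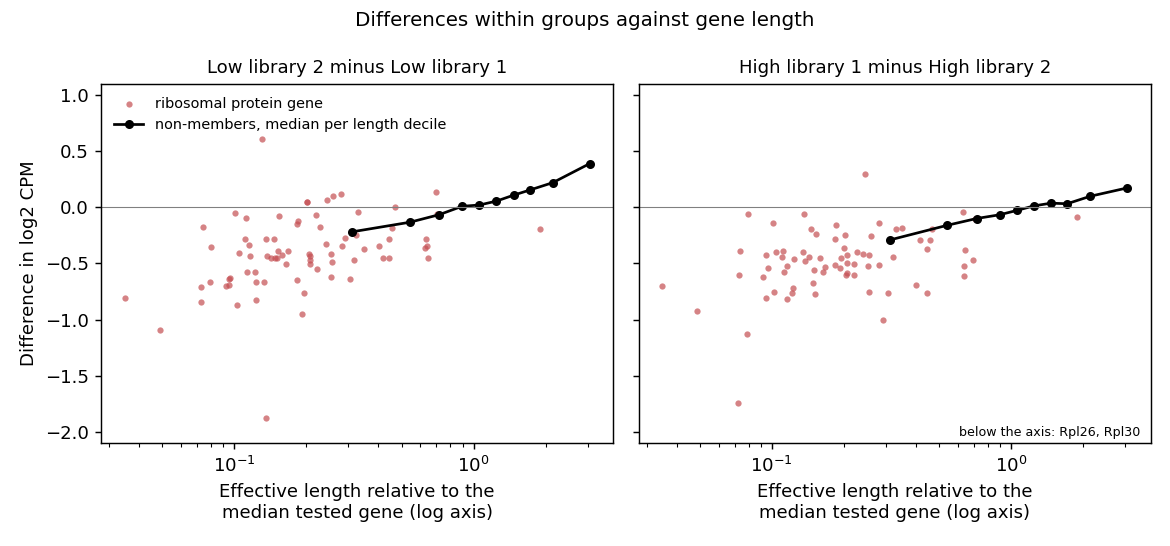
Log2 difference between the libraries of a group (Low library 2 minus Low library 1, and High library 1 minus High library 2) against effective length relative to the median tested gene on a log axis, with ribosomal protein genes as red points and the medians of other genes by length decile as black points joined by a line. The line takes only other genes with a mean log2 CPM over 5. It rises from -0.22 to 0.39 in the Low panel and from -0.29 to 0.17 in the High panel. Most ribosomal protein genes are shorter than the median of the line's first decile, and Rpl26 and Rpl30 lie below the axis of the High panel.

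A fit in which the trend of each library with length was taken out, added after these values were seen, left the 0 calls between High and Low as they were. The members' median in that comparison moved from -0.06 to -0.12, beside 0.01 for all tested genes in the new fit. Members below 0 went from 44 to 52 of 77. The median between the High libraries moved from -0.47 to -0.13, with 56 of 77 members below 0 and 4 calls in place of 5, where 13.9% of all tested genes were called in either direction. Rpl36 was no longer called (adjusted p = 0.185), while Rpl26, Rpl30, Rps7 and Rps29 were. Against Low, the median of High library 1 moved from -0.31 to -0.20 with 8 calls (24.6% of all genes), and that of High library 2 from 0.21 to -0.02. High library 2 then had 3 calls (22% of all genes), Rps29 higher and Rpl34 and Rpl7a lower (adjusted p = 0.0327 for Rpl7a). The trend can hold biology as well as library properties, and which of them it holds was not tested.

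Genes that make or use ribosomes were described from lists chosen with the earlier results of these data known. Between High and Low, 2.47% of all tested genes were called. For comparisons of a single High library, the shares of all tested genes called are given above, and calls in these lists are to be read beside them. The mitochondrial ribosomal proteins, which serve translation inside mitochondria, had 76 tested genes and 0 calls between High and Low, with a median of -0.07. In High library 1 their median was -0.28 with 1 gene lower (Mrps18b), and in High library 2 it was 0.08 with 1 gene higher (Mrpl33). Within the Low pair they shared the direction of the cytosolic genes in 61 of 76 (80.3%), with a median of -0.23 at a median relative length of 0.323. Their difference from the cytosolic set was not tested.

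Ribosome biogenesis factors process ribosomal RNA and assemble subunits in the nucleolus. Of 37 tested genes, 0 passed the test between High and Low, but 35 (94.6%) had a change below 0, beside 47.8% of all tested genes. Their median was -0.39 beside 0.03 for all genes. The median was -0.55 in High library 1, with 9 genes lower (Bysl, Ncl, Nop16, Nop56, Rrp1b, Rrp9, Tcof1, Utp20, Wdr12), and -0.22 in High library 2, with Utp20 lower. Within the Low pair their median was -0.07, with 54.1% of them lower in Low library 2. Between High library 1 and High library 2 it was -0.31, with 86.5% lower in High library 1, beside 51.1% of all tested genes. Nop56, a core protein of box C/D snoRNPs, had 452.9 and 425.3 CPM in Low and 209.4 and 259.5 CPM in High, without overlap (-0.90 ± 0.23, adjusted p = 0.0923). Both High libraries were below both Low libraries for 25.1% of all tested genes. Ncl, the nucleolar protein nucleolin, had 2371 and 2783 CPM in Low and 1567 and 1784 CPM in High. In the list of RNA polymerase I and its factors, 0 of 15 genes were called and the median was -0.22. Polr1b, the second largest subunit of that enzyme, had 65.5 and 61.1 CPM in Low and 25.6 and 33.8 CPM in High. It was lower in each High library against Low (-1.31, adjusted p = 0.000822, and -0.91, adjusted p = 0.0291), and Polr1c was lower in High library 1. The snoRNA host genes, many of which also start with a pyrimidine tract, were below 0 in 9 of 9 tested genes with a median of -0.57 and 0 calls. Snhg7 was lower in High library 1.

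Among translation factors and other genes with pyrimidine-tract mRNAs, 1 of 24 was called between High and Low. This was Vim, the intermediate filament protein vimentin, with 2167 and 1725 CPM in Low and 760.1 and 590.6 CPM in High (-1.53 ± 0.25, adjusted p = 0.0275). Vim is also a mesenchymal marker, and the fibroblast marker sum was lower in High in the same libraries; its part in this value was not tested. The list's median was -0.29. Hnrnpa1 and Eef1d were lower in High library 1, and Hnrnpa1 had 421.6 and 152.4 CPM in the Low pair itself. In the mTOR and translation control list, 0 of 25 genes were called between High and Low and the median was 0.02. Pdcd4, an inhibitor of translation initiation, had 29.0 and 34.3 CPM in Low, 76.9 in High library 1 and 28.5 in High library 2. It was higher in High library 1 than in Low (1.28, adjusted p = 0.000294) and than in High library 2 (1.43, adjusted p = 0.00162). Eef2k, the kinase that slows elongation, was also higher in High library 1 than in Low, and Rps6ka6 was lower. Rps6ka1 and Rps6ka6 were lower in High library 1 than in High library 2. In the MYC network, 0 of 11 genes were called between High and Low, with a median of 0.04. Mxd1, a repressor that competes with MYC for Max, had 5.14 and 3.70 CPM in Low and 23.1 and 13.1 CPM in High. It was higher in each High library (2.40, adjusted p = 1.28e-09, and 1.59, adjusted p = 0.000182), and Mxd4 was higher in High library 1.

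**Figure D5:**
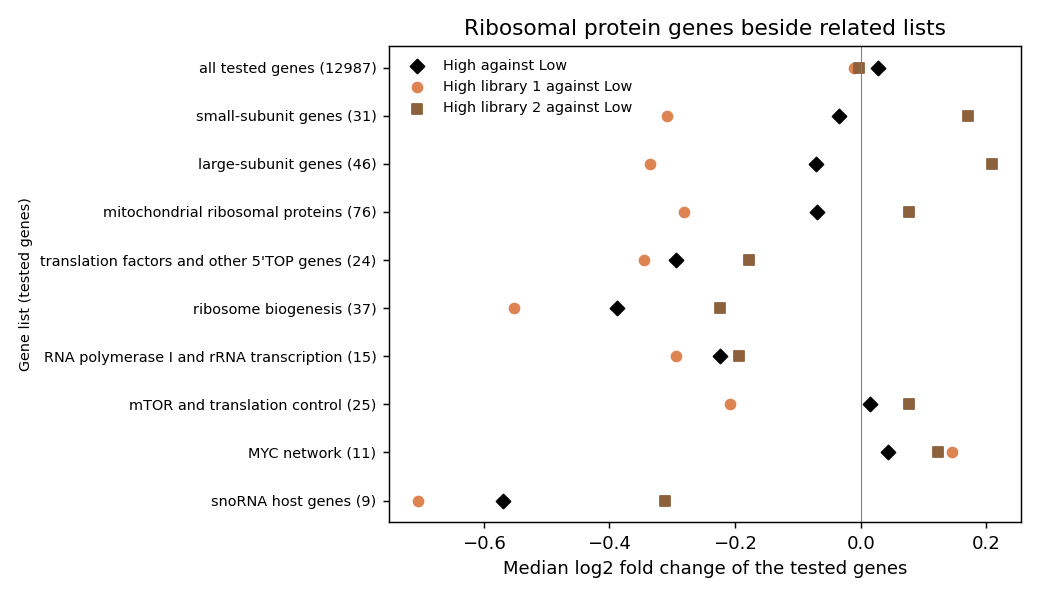
Median log2 fold change against the Low libraries over the tested genes of each list (1 row per list, with the number of genes in brackets), for both High libraries together (black), High library 1 (orange) and High library 2 (brown). The small-subunit medians of the single libraries are -0.31 and 0.17 and the large-subunit ones -0.33 and 0.21, on opposite sides of 0, while the biogenesis medians are -0.55 and -0.22, both below it.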

How the data were processed

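RNA was sequenced in 4 libraries from 500 ng of total RNA each with a strand-specific kit, per the labels' protocols. Upstream, the authors' genome build was mm10 and their tools were TopHat2 (2.0.13), Cuffdiff (2.2.1) and cutadapt (1.5), per the submitters' processing notes. For annotation, strand setting and fragments matching several places, the methods were not given in the sources used here. Per the file headers, the deposited values are estimated counts (fragments of each gene in each library), 99.18% of them whole within a tolerance of 1e-06, and these were rounded for testing. It also gives a scaled signal, the authors' fragments multiplied by 1 factor per library (0.7291 to 1.4646), and the authors' FPKM, which is per length. Libraries in the table are numbered within the groups named control and Arid1a. These numbers name the libraries only and do not tell the clones apart. All per-sample values could be tied to a library (0 could not). No member, and 11 genes in all, had a status other than OK.

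The ribosomal protein genes and the related lists were chosen with earlier results of these data known. Tests were two-sided quasi-likelihood F tests of edgeR 4.0.16 in R 4.3.3 (limma 3.58.1), with TMM scaling and robust estimation. Genes were kept by filterByExpr with a smallest count of 10, and p-values were adjusted by Benjamini-Hochberg over all 12987 genes, with a threshold of 0.05. High against Low had 2 residual degrees of freedom. A fit with 3 groups, which set each High library apart, had 1, from the Low pair, and assumes that a lone library varies like that pair. Biological variation (edgeR's coefficient) came to 17.3% between the Low duplicates and 42.8% between the High libraries. The Low duplicates differed by more than sampling noise (chi-square per degree of freedom 32.4) and were kept apart. No label says that they are separate cultures, and p-values here then reflect only how these samples vary, which may be technical. An exact permutation test of 2 against 2 libraries cannot go below p = 0.333 and is not given. The scripts were tested on simulated counts.

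CPM values are TMM-scaled, and SEs are those of the log2 change. A gene at 0 was compared through a floor of 3 fragments per library, which covers counting error only. Alternatives were other scalings, no filter, DESeq2 1.42.0, limma on log2(FPKM + 1) or + 0.1, a replicate block, leaving out each library and, added after the data were seen, offsets for a trend with length. Members were named with values where they had the 5 highest or lowest changes between High and Low or between the High libraries, or the 5 highest or lowest mean FPKM. Paralogues, members at 0, stalk and Mdm2-binding members were named too, and other called members and Rpl4, Rpl23 and Rps13 were added after their values were seen. Genes of like pattern over 4 libraries were not sought, because 4 points are too few for a correlation. Some items are not reported here.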

Additional observations from a re-analysis of the deposited data

Results flagged for a closer look

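The High libraries differed from each other in 5 ribosomal protein genes by edgeR's quasi-likelihood test of the difference itself, each lower in High library 1. The test called 4.46% of all tested genes lower and 6.47% higher in the same comparison, so calls as such are not particular to these genes. On the log2 scale these were Rpl26 (-9.58, adjusted p = 1.36e-08, a fitted value against 0 fragments that depends on the prior count and is no bound), Rpl30 (-3.86, adjusted p = 7.52e-12), Rps29 (-1.74, adjusted p = 3.34e-05), Rpl36 (-1.13, adjusted p = 0.0157) and Rps7 (-1.01, adjusted p = 0.0237). All 5 were lower in 1 of 1 library against the other, and the test takes its spread from the Low pair. Within that pair, Low library 2 minus Low library 1 was -0.85 for Rps29, -0.67 for Rpl36, -0.66 for Rpl30, -0.27 for Rps7 and 0.63 for Rpl26.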

How the results depend on the processing

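No call turned its direction under any alternative run. Between High and Low, 0 ribosomal protein genes were called under other scalings, without the filter, with limma and with the replicate block (median -0.08 with the block), while DESeq2 called 1. Leaving out 1 library at a time gave 0 to 10 calls: 1 without High library 1 and 10 without High library 2, where 17.1% and 18.8% of all tested genes were called. Without either Low library there were 0 calls among the members and 0 among all genes. The lone Low library is then assumed to vary like the High pair. The median for the same comparison ran from -0.31 to 0.21. In High library 1 against Low, scaling by total counts only gave 4 calls in place of 9. In High library 2 against Low, DESeq2 gave 2 and the length-trend offsets 3 in place of 1. These counts are to be read beside all tested genes. Total counts only called 19.5% of them in High library 1. In High library 2, DESeq2 called 13% and the fit with the offsets 22%. Between the High libraries the median was -0.13 with the length-trend offsets in place of -0.47, and the offsets take the length trend out by construction. The cause of the other changes was not tested. With a Low library left out, a test of a single High library has no residual degrees of freedom, so medians alone were computed. The replicate block is an arbitrary pairing: the labels do not tie the numbers, and deviations of same-numbered libraries correlated at -0.313 over 6182 genes. For the named genes, 904 planned values with a test kept their direction and their side of the threshold, 13 newly passed it and 12 no longer did. A further 51, not called in either fit, changed sign. Of the values without a test, 119 kept their direction and 21 changed sign. Depth limits Rpl26, Rpl30 and Rps27, all below 50 CPM.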
